A study of Mus musculus with 6 samples.

Results

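The mouse zinc finger genes that carry a numbered Zfp symbol were examined in single oocytes lacking Argonaute2 (Ago2) and in wild-type germinal vesicle (GV) oocytes. A gene was a member when its array probe was annotated to 1 symbol made of Zfp and a number, and Zfp36 and Zfp57 were left out. This gave 208 genes on 217 of the 33012 probes of the array. The family was selected on the measured loss of Zfp61 in these 6 arrays, so the Zfp61 values are given as a description with no test, and the other members entered by name alone. Most of these genes encode C2H2 zinc finger proteins, in which each finger is a short loop folded around a zinc ion that contacts a few bases of DNA. Many of them also carry a KRAB domain, which recruits the corepressor Trim28 and, through it, histone methylation that silences nearby chromatin. KRAB zinc finger proteins are best known for silencing endogenous retroelements in the germ line and early embryo, while other family members work in RNA processing, ribosome assembly or at the spindle.

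Each array measured the amplified RNA of 1 oocyte, and 3 mature oocytes that were Ago2-deficient were set against 3 GV oocytes that were wild-type. The mutant oocytes came from females with both Ago2 alleles floxed that carried the Zp3-Cre transgene, which is driven by the zona pellucida glycoprotein 3 promoter and removes Ago2 in growing oocytes. Per the labels, the GV oocytes came from adult wild-type females, were collected from oviducts and were freed of cumulus cells with hyaluronidase. GV oocytes are usually taken from ovaries and ovulated mature oocytes from oviducts, so this label leaves a doubt about the stage, which is used here as labelled. GV oocytes are arrested in the first meiotic prophase and mature oocytes have resumed meiosis, so genotype and stage cannot be told apart in any difference given here. Whether the oocytes of a group came from separate animals is not stated in the labels, and p-values then measure only the spread between these oocytes. Less RNA of 1 gene and less RNA in the whole oocyte also cannot be told apart.

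The Ago2 probe was detected on 1 GV array and on no other, so it did not check the genotype. A probe counted as detected where its signal-to-noise ratio reached 3. Of 11 oocyte markers on the array, 8 were detected on each Ago2-deficient array and 11 on each GV array, with Zp2, Figla and Kit detected on no Ago2-deficient array. In the limma fit described below, 10 of these 11 were called lower and 0 higher, with a median log2 difference of -2.67. Over all genes tested, 44.8% were called lower and 17.4% higher, with a median of -1.39. Of 17 cumulus and granulosa markers, 2 to 5 were detected on the Ago2-deficient arrays and 3 to 5 on the GV arrays, and the summed marker level was 13.91 to 15.39 on the log2 scale in the mutant oocytes against 12.23 to 12.88 in the GV oocytes. Of the 4 such markers tested, Ereg and Btc, ligands of the epidermal growth factor receptor, were higher and were detected on all 3 mutant arrays and on no GV array. Btc alone read 15.09, 13.16 and 13.84 in the mutant oocytes, so the summed level there rests largely on Btc. Inha, an inhibin subunit, and Nr5a2, a nuclear receptor, were lower and were detected on all 3 GV arrays and on at most 1 mutant array. Fshr, Amh and Has2 were detected on no array. The part of these shifts in the results below was not tested.

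The probe for Zfp61 gave the largest difference of the 69 tested members. Its quantile-normalized level was 6.91, 6.61 and 8.11 in the mutant oocytes, against 17.43, 17.61 and 17.47 in the GV oocytes, all on the log2 scale. All 3 mutant arrays lay below all 3 GV arrays. In scanner units the signal was 208, 163 and 252 in the mutant oocytes, and 266002, 312148 and 248479 in the GV oocytes. The signal-to-noise ratio was 1.21, -0.89 and 1.83 in the mutant oocytes, below the detection limit on every array, and 60.6 to 67.7 in the GV oocytes. With the deposited scaling the measured level was 1259-fold lower in the Ago2-deficient oocytes. A bound, worded below as at least a given fold, is the GV mean over a floor. That floor is, per mutant array, the lowest signal among detected probes or the signal of the probe itself, whichever was higher. The signal of the Zfp61 probe was the higher on every mutant array, so its bound equals the measured difference and is smaller under some other scalings. Bounds given below for other genes also hold for the deposited scaling only, and do not allow for the spread between arrays. The measured difference was -10.30 on the log2 scale, -10.75 to -10.00 with any 1 array left out, and -11.49 to -7.92 under other scalings of the arrays.

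The sequence upstream of Zfp61 and of Zfp979, the member with the largest call in the opposite direction, is shown for these ends of the range, with the CG dinucleotides, the sites of DNA methylation, marked. Each run gives the 250 bases before the gene start in the RefSeq annotation of GRCm38.p6, 5′ to 3′ on the strand of the gene, with each CG in capitals. Zfp61 (chr7:24299550-24299799, minus strand) holds 13 CG and Zfp979 (chr4:147642509-147642758, minus strand) holds 2.
Zfp61: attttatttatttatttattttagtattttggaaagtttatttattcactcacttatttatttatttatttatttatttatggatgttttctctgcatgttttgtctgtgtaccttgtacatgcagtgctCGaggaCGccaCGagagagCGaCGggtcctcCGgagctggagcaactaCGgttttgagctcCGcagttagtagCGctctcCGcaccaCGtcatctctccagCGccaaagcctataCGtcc
Zfp979: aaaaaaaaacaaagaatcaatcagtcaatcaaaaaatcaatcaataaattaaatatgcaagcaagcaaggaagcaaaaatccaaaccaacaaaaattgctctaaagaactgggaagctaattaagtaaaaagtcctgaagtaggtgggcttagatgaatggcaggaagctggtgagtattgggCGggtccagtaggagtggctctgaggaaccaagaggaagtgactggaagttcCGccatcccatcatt
The letters CG read the same on both strands, and 91.7% of the 27025 gene starts in the RefSeq table hold at least 1 in this window. The median count was 11 over the 172 members with a promoter in the table, against 6 over all gene starts, and 59.9% of these members held at least 10, against 38.2%. Members detected on all 3 GV arrays had a median of 13 CG (56 genes), and members detected on no array had a median of 9 (57 genes). The median was 13 over 5 members called higher and 10.5 over 30 called lower, so the counts of Zfp979 and Zfp61 do not stand for those groups. Promoter methylation was not measured.

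Zfp61 lies on chromosome 7, the chromosome with the most members (53 of 208). In RefSeq order it stands in an unbroken run of 10 Zfp genes, Zfp180, Zfp112, Zfp235, Zfp114, Zfp111, Zfp109, Zfp108, Zfp93, Zfp61 and Zfp94, of which 9 had a probe. Zfp180 read 5.98, 6.58 and 6.87 in the mutant oocytes and 9.59, 9.96 and 9.78 in the GV oocytes. Its probe was detected on every GV array and on no mutant array, and it fell at least 9.49-fold (limma, adjusted p = 0.00047). Zfp108 showed the same split in detection, with 6.75, 6.64 and 8.06 in the mutant oocytes against 9.42, 9.18 and 9.37 in the GV oocytes. With the deposited scaling it fell at least 4.51-fold (limma, adjusted p = 0.00614). The Zfp108 call was lost with cyclic loess scaling (-1.06 on the log2 scale) and with centring on probes detected on every array (-0.45). The other 6 neighbours with a probe were detected on at most 1 array of either group and were not tested. Of the 8 neighbours on the array, 6 were thus undetected on most arrays of both groups.

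**Figure D1:**
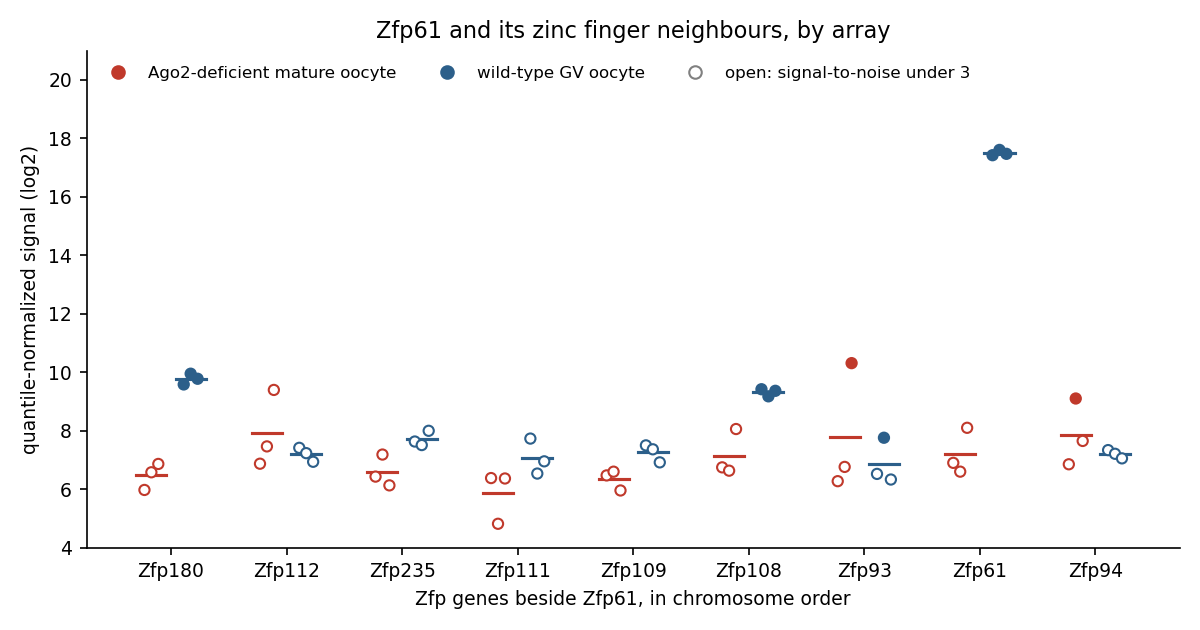
Quantile-normalized log2 signal (vertical axis) of the 9 Zfp genes with a probe in the run around Zfp61, in chromosome order, with 3 Ago2-deficient mature oocytes in red and 3 wild-type GV oocytes in blue; open points are under a signal-to-noise ratio of 3 and bars are group means. Zfp61 sits at 6.61 to 8.11 in the mutant oocytes and at 17.43 to 17.61 in the GV oocytes, and only Zfp180, Zfp108 and Zfp61 are detected on every GV array.

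Fewer Zfp probes were detected in the mutant oocytes. Of the 217 Zfp probes, 38, 54 and 49 were detected on the Ago2-deficient arrays, against 93, 91 and 95 on the GV arrays. The means were 47.0 ± 8.19 and 93.0 ± 2.00 probes (SD, n = 3 each). They are a description with no test, because the Zfp61 probe, which led to the choice of the family, is counted among them. The groups did not overlap. As a share, 21.7% of Zfp probes were detected in the mutant oocytes and 42.9% in the GV oocytes. Of the 14411 probes with 1 symbol, 21.5% were detected in the mutant oocytes and 41.5% in the GV oocytes, and of all probes 18.3% in the mutant oocytes and 33.0% in the GV oocytes. On no array were 69 Zfp probes detected (31.8%), against 36.1% of the probes with 1 symbol. Among the 68 Zfp probes detected on all 3 GV arrays, 23 were detected on no mutant array, 21 on 1, 9 on 2 and 15 on all 3. Of these Zfp probes, 33.8% were seen on no mutant array and 22.1% on all 3. The shares were 35.7% and 31.0% for probes with 1 symbol detected on the 3 GV arrays, and 34.1% and 32.4% for all such probes. Without the Zfp61 probe, 22 of 67 Zfp probes were seen on no mutant array (32.8%) and 15 on all 3 (22.4%).

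**Figure D2:**
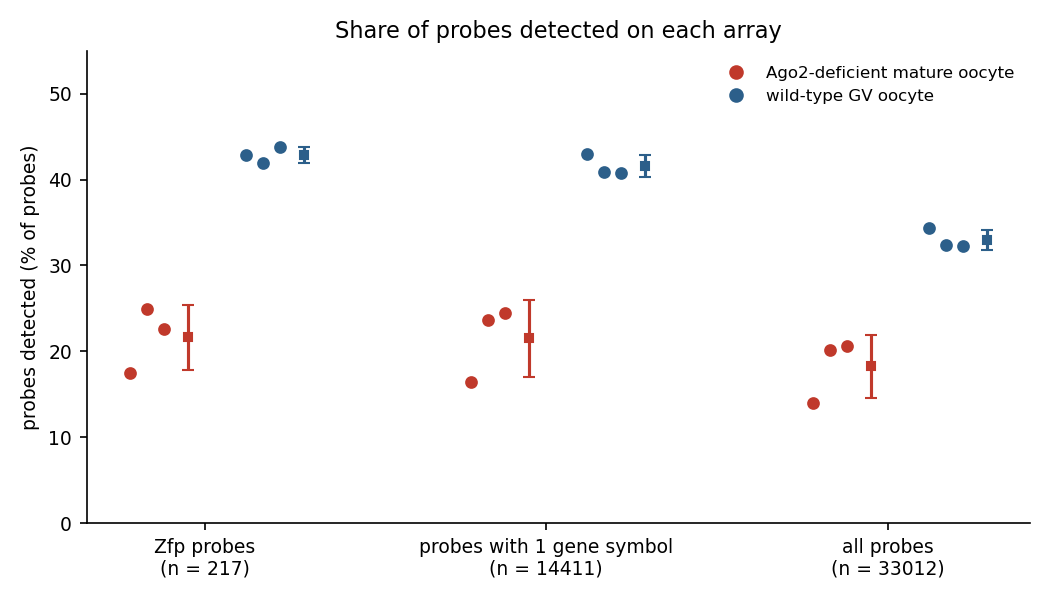
Share of probes detected (vertical axis, percent of probes whose signal-to-noise ratio reached 3) for the Zfp probes, the probes with 1 gene symbol and all probes, with Ago2-deficient mature oocytes in red and GV oocytes in blue; each circle is an array, and a square with its bar gives mean and SD (n = 3). Zfp probes, with Zfp61 among them, average 21.7% in the mutant oocytes and 42.9% in the GV oocytes. The lowest mutant array is the same in each set.

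More Zfp genes were lower than higher in the mutant oocytes, as was so for the array as a whole. Testing required detection on every array of either group, which 69 member genes passed, and a call needed an adjusted p under 0.05 and a fold over 2. Apart from Zfp61, 6 of 68 tested members were higher (8.82%) and 35 were lower (51.5%), where 17.4% and 44.8% of the 7915 genes tested across the array were called higher and lower. All genes, here and elsewhere, include probes with no single symbol, each counted as a gene. Of the 4568 tested genes with a symbol, as every member has, 15.0% were higher and 47.6% lower. The median log2 difference was -1.83 over these 68 members, beside -1.39 over all genes tested and -1.54 over the 4568 with a symbol. As 51 of the 68 passed the filter through the GV arrays alone and 3 through the mutant arrays alone, these counts describe the members that passed and support nothing about the family. The remaining 139 genes had no tested probe, 66 of them detected on no array and 73 on at least 1. Without the filter, 6 of 207 members were higher and 30 lower, beside 5.26% and 9.12% of 32441 genes. Over the 14 members detected on all 6 arrays, 3 were higher and 2 lower with a median of 0.17, where 43.5% and 20.2% of 2497 such genes were higher and lower with a median of 0.83.

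**Figure D3:**
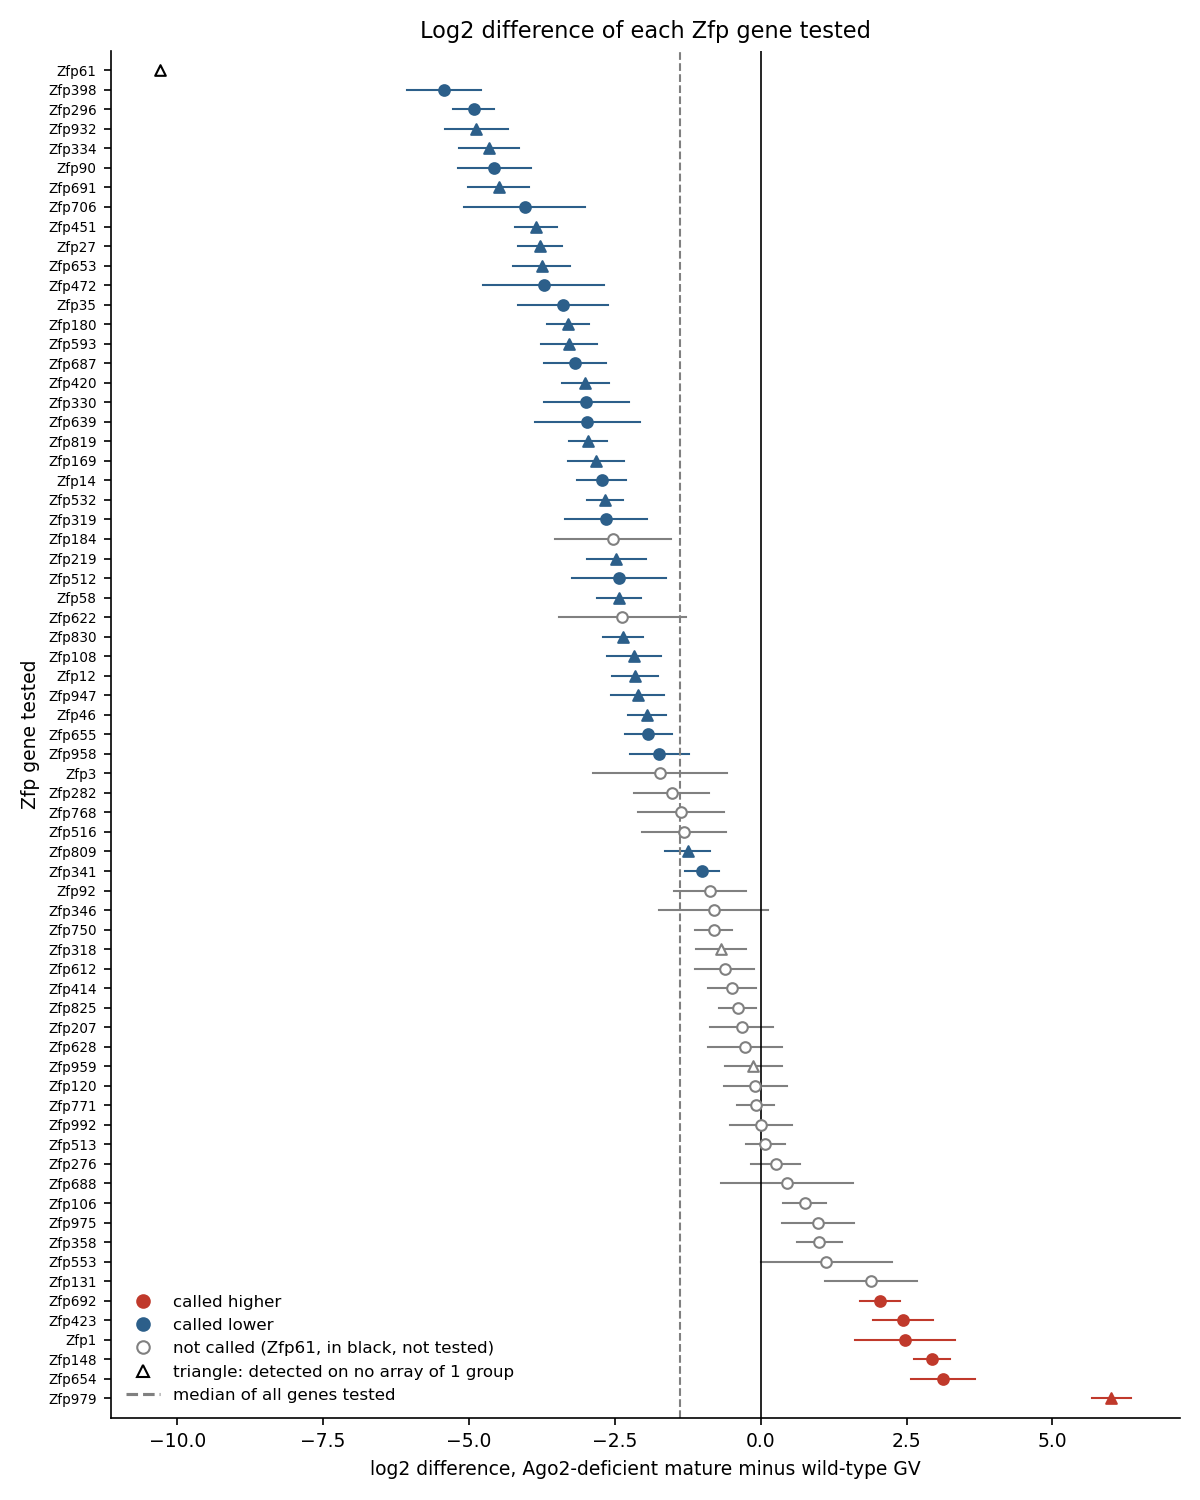
Log2 difference, Ago2-deficient mature minus wild-type GV (horizontal axis), of the 69 Zfp genes tested (rows), with bars of 1 standard error from limma (n = 3 arrays in each group); triangles mark genes detected on no array of 1 group, whose difference is as measured. Zfp61 lies at -10.30 without a test, the called members reach -5.43 for Zfp398 and 6.01 for Zfp979, with a dashed line at -1.39, the median of all genes tested; Zfp148, Zfp423 and Zfp692 turn lower with arrays centred on their median, and Zfp46, Zfp809 and Zfp958 turn higher with arrays centred on probes detected everywhere.

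The number of calls moved with the way the arrays were scaled to each other. With each array centred on its median, 1 member was higher and 58 lower (all genes, 3.94% and 78.6%), and with cyclic loess 16 were higher and 29 lower (all genes, 24.7% and 31.7%). With the unscaled signals 3 were higher and 46 lower (all genes, 7.72% and 60.3%), and centring on probes detected on all arrays gave 9 and 22 (all genes, 20.1% and 31.3%). The median of all genes tested was -3.08, -0.36, -1.97 and -0.42 under these 4 scalings. Zfp979 was the 1 member called higher under each of them, and 20 of the 35 lower calls were kept under the last, against 35, 29 and 33 under the array median, cyclic loess and no scaling. Leaving out the first Ago2-deficient array, on which the fewest probes were detected, raised the higher count to 15 of 73 members tested, while the share of all genes called higher was 23.5%.

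**Figure D4:**
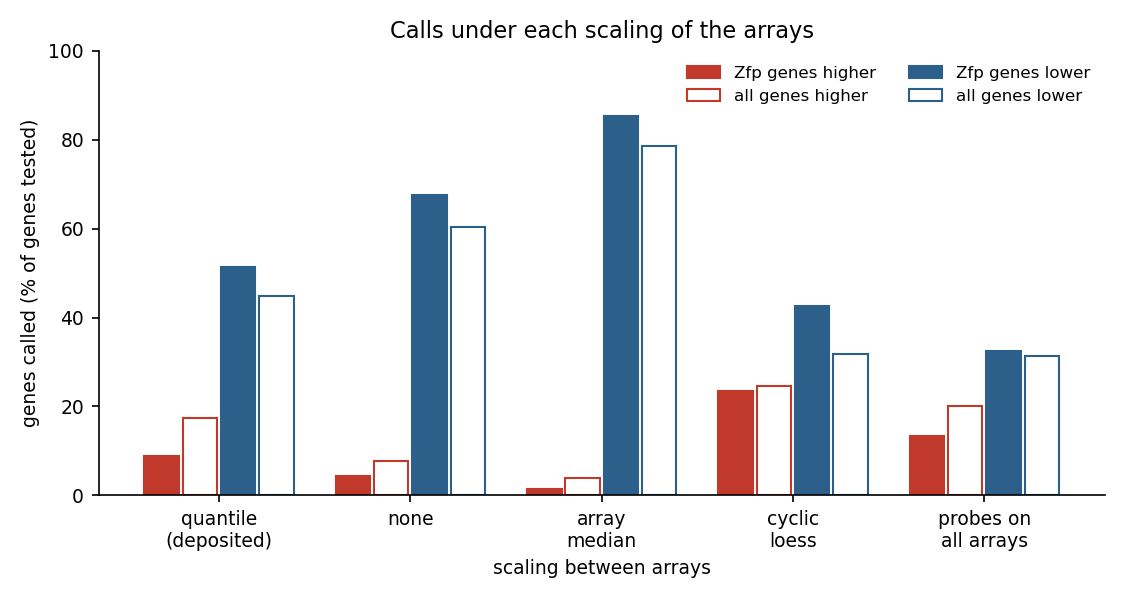
Share of tested genes called higher (red) and lower (blue) in Ago2-deficient mature against wild-type GV oocytes (vertical axis, percent of genes tested) under 5 scalings of the arrays (horizontal axis), with filled bars for the 68 Zfp genes besides Zfp61 and open bars for all 7915 genes. Higher Zfp calls range from 1 with the array median to 16 with cyclic loess, and the bars for all genes move with them.

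The 6 members called higher were Zfp979, Zfp654, Zfp148, Zfp1, Zfp423 and Zfp692, all detected on all 3 Ago2-deficient arrays. Zfp979 read 12.82, 13.13 and 13.33 in the mutant oocytes and 7.43, 6.87 and 6.95 in the GV oocytes, where its signal-to-noise ratio was at most 2.09. It was the 1 member detected on every mutant array and on no GV array, and it was at least 64.6-fold higher in the mutant oocytes (limma, adjusted p = 0.000114). RefSeq places Zfp979 on chromosome 4 between Zfp985 and Zfp534 in a cluster of Zfp genes, of which Zfp933 also had a probe. Whether the Zfp979 probe also bound transcripts of those neighbours was not tested.

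Zfp654 was detected on 2 GV arrays. It read 12.12, 12.45 and 11.38 in the mutant oocytes and 8.99, 7.91 and 9.67 in the GV oocytes, a log2 difference of 3.12 ± 0.55 (SE, limma, adjusted p = 0.00281). The groups did not overlap, and the difference was 0.78 and no longer called with arrays centred on their median. Zfp148, also known as ZBP-89, binds GC-rich promoters and acts on growth and differentiation genes. Its level was 13.63, 13.86 and 13.80 in the mutant oocytes against 10.62, 10.91 and 10.96 in the GV oocytes, and the replicates of each group lay within 0.4 of each other. It was higher by 2.93 ± 0.30 (SE, limma, adjusted p = 0.000382), and its other probe was higher by 3.82, although array-median centring took the first of these probes to -0.15. Zfp423, a partner of Smads in bone morphogenetic protein signalling and of Ebf factors, read 13.04, 14.35 and 14.48 in the mutant oocytes and 10.92, 11.88 and 11.75 in the GV oocytes. The difference was 2.44 ± 0.52 (SE, limma, adjusted p = 0.0061), with no overlap of groups, and stood at -0.74 with arrays centred on their median.

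Zfp692 corresponds to human ZNF692, a protein phosphorylated by the AMP-activated kinase. Its brighter probe read 16.06, 16.02 and 16.63 in the mutant oocytes and 14.14, 14.43 and 14.00 in the GV oocytes, and was higher by 2.04 ± 0.34 (SE, limma, adjusted p = 0.00223). The dimmer probe read 6.38, 10.70 and 9.10 in the mutant oocytes and 9.32, 9.19 and 9.28 in the GV oocytes, with a difference of -0.54 that was not called (limma, adjusted p = 0.668). The mutant arrays thus spanned over 4 log2 units on the dimmer probe, on both sides of the GV arrays, and the direction of Zfp692 depended on the probe and on the scaling, at -0.87 with arrays centred on their median. Zfp1 read 9.92, 10.53 and 10.83 in the mutant oocytes and 5.95, 9.16 and 8.75 in the GV oocytes. The first GV array lay far below the other two. The difference of 2.47 ± 0.86 (SE, limma, adjusted p = 0.0417) was 1.47 without that array, and the call was lost without the second mutant array (2.42), the third mutant array (2.27) or the third GV array (2.87).

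Of the 35 members called lower, 20 were detected on no Ago2-deficient array, 10 on 1, 3 on 2 and 2 on all 3. In each of the 35 the mutant arrays all lay below the GV arrays, and the differences ran from -5.43 to -1.001 on the log2 scale. The lowest was Zfp398, whose human counterpart ZNF398 binds the estrogen receptor. It read 6.61, 8.75 and 6.75 in the mutant oocytes and 12.51, 12.68 and 13.20 in the GV oocytes, and fell by 5.43 ± 0.63 (SE, limma, adjusted p = 0.00057), and by 6.12 without the second mutant array. Zfp296, a gene of pluripotent cells that aids reprogramming, was one of the 2 detected on all 6 arrays. It read 13.10, 12.60 and 13.28 in the mutant oocytes against 17.61, 18.16 and 17.98 in the GV oocytes, and fell by 4.92 ± 0.35 (SE, limma, adjusted p = 0.000151). No mutant array overlapped the GV arrays, and on each the probe stayed detected.

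**Figure D5:**
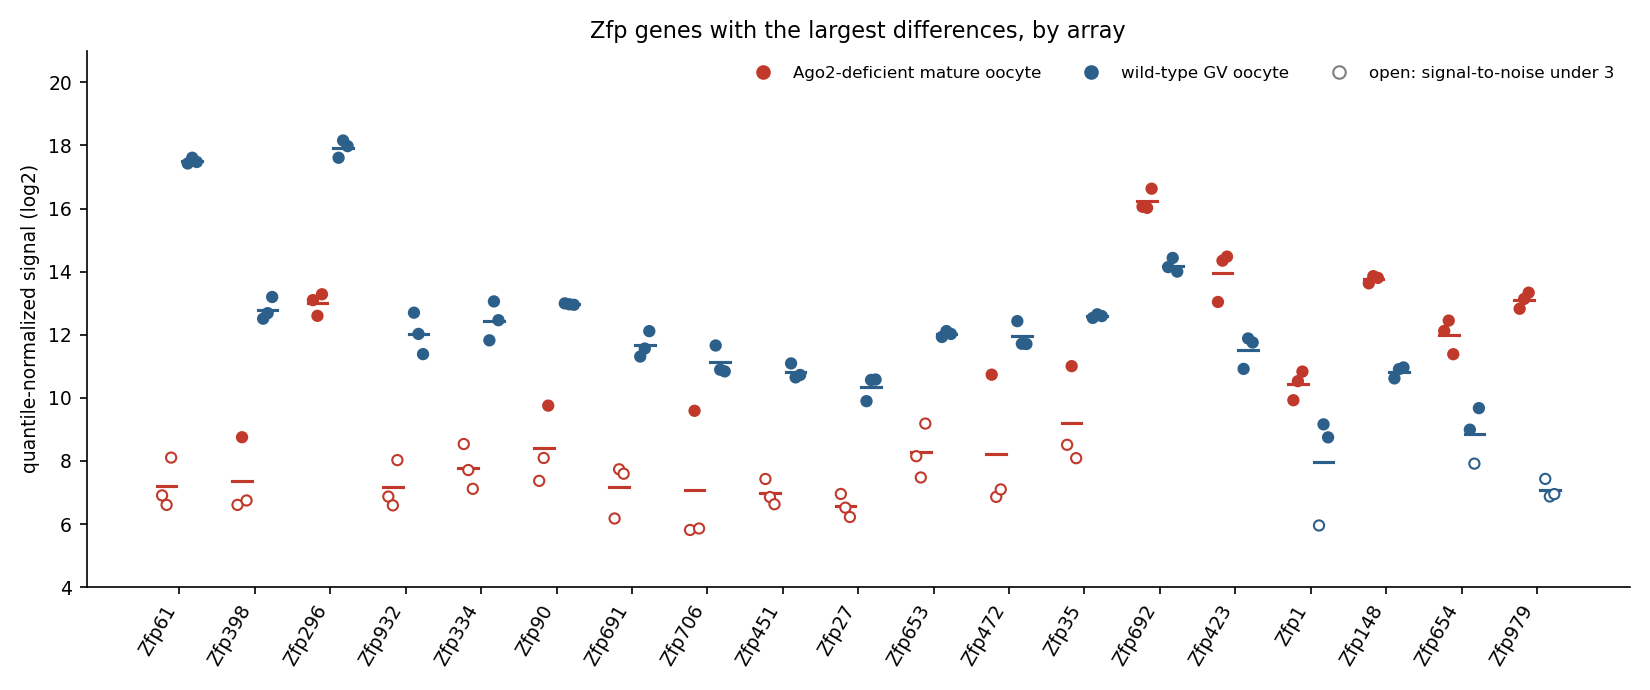
Quantile-normalized log2 signal (vertical axis) of Zfp61, the 12 other Zfp genes called lower with the largest differences and the 6 called higher, with 3 Ago2-deficient mature oocytes in red and 3 wild-type GV oocytes in blue; open points are under a signal-to-noise ratio of 3 and bars are group means. In each gene shown the groups do not overlap, from -5.43 for Zfp398 to 6.01 for Zfp979 besides Zfp61; Zfp148, Zfp423 and Zfp692 turn lower with arrays centred on their median.

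Of the 12 members with the largest falls, 6 were undetected on every mutant array and have a bound only. Zfp334 read 8.54, 7.71 and 7.12 in the mutant oocytes and 11.82, 13.06 and 12.46 in the GV oocytes, at least 25.3-fold lower (limma, adjusted p = 0.000472). Zfp691 read 6.18, 7.74 and 7.59 in the mutant oocytes against 11.31, 11.56 and 12.11 in the GV oocytes, at least 22.5-fold lower (limma, adjusted p = 0.000547). For both genes every mutant array was more than 3 log2 units below every GV array. Zfp27 and Zfp653 were at least 13.5-fold lower each (limma, adjusted p = 0.000336 and 0.00082), and Zfp932 and Zfp451 are given below with the genes of their roles. The second Zfp27 probe was detected on no array.

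In 5 of these 12, Zfp398, Zfp90, Zfp706, Zfp472 and Zfp35, a single mutant oocyte gave a detected signal. Zfp90 read 7.37, 8.09 and 9.75 in the mutant oocytes and 12.99, 12.96 and 12.95 in the GV oocytes, a difference of -4.56 ± 0.62 (SE, limma, adjusted p = 0.00101). The third mutant oocyte was the one above the detection limit, and without it the difference was -5.24. Zfp35 read 8.51, 11.003 and 8.09 in the mutant oocytes and 12.53, 12.65 and 12.59 in the GV oocytes, a difference of -3.39 ± 0.77 (SE, limma, adjusted p = 0.00796). Here the second mutant oocyte stood apart, and without it the difference was -4.29. Zfp472 read 10.73, 6.86 and 7.10 in the mutant oocytes against 12.43, 11.71 and 11.71 in the GV oocytes, a difference of -3.72 ± 1.04 (SE, limma, adjusted p = 0.0185). The first mutant oocyte was high, and the Zfp472 call was lost without any of the other 5 arrays, with differences between -4.97 and -3.03 over all arrays left out. Scaling by cyclic loess also ended the Zfp472 call, at -2.03. The 3 GV values of Zfp90, of Zfp35 and of Zfp472 lay within 0.8 of each other.

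Among the members with studied roles, the 3 KRAB repressors tested were lower, of 6 listed and 4 on the array, beside 44.8% of all genes. Each was detected on all 3 GV arrays and on no mutant array, and so passed the filter through the GV arrays alone. Zfp932 represses endogenous retroviruses in embryonic stem cells. It read 6.87, 6.59 and 8.03 in the mutant oocytes and 12.70, 12.03 and 11.38 in the GV oocytes, at least 29.3-fold lower (limma, adjusted p = 0.000472). Zfp819, which has been tied to retroelement silencing in pluripotent cells, read 6.36, 6.28 and 5.77 in the mutant oocytes and 9.05, 9.01 and 9.24 in the GV oocytes. With the deposited scaling it was at least 6.90-fold lower (limma, adjusted p = 0.000472). The Zfp819 call was lost at a log2 difference of -1.08 under centring on probes detected on every array. Zfp809 binds the primer binding site of murine leukaemia viruses and brings in Trim28. Its levels were close, at 8.18, 8.47 and 8.02 on the GV arrays and at 7.44, 7.05 and 6.42 on the mutant arrays. With the deposited scaling the measured fall was 2.38-fold (limma, adjusted p = 0.0264). That value is not a lower limit across scalings, because the direction turned with the scaling. The Zfp809 difference of -1.25 lost its call without the third mutant array or any 1 GV array (-1.49 to -0.98 over all arrays left out) and stood at 1.06 with arrays centred on probes detected everywhere.

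Of 14 genes listed for roles with RNA, the ribosome, the spindle, SUMO or ubiquitin, 12 were on the array and 9 were tested, with 0 higher and 4 lower at the call threshold of the limma fit, beside 17.4% and 44.8% of all genes. Zfp706, which embryonic stem cells need to leave self-renewal, read 5.81, 9.59 and 5.86 in the mutant oocytes and 11.66, 10.89 and 10.84 in the GV oocytes. The second mutant oocyte was close to the GV level, and the difference was -4.04 ± 1.04 (SE, limma, adjusted p = 0.0134), -5.29 without that oocyte, and no longer called without the first GV array. Zfp451, a SUMO ligase, read 7.43, 6.85 and 6.63 in the mutant oocytes and 11.09, 10.65 and 10.72 in the GV oocytes, at least 14.4-fold lower (limma, adjusted p = 0.000273). Zfp593, whose yeast counterpart takes part in the export of the large ribosomal subunit, was at least 9.73-fold lower (limma, adjusted p = 0.00133). Zfp830, a splicing factor that early mouse embryos need, was at least 4.94-fold lower with the deposited scaling (limma, adjusted p = 0.00138). The Zfp830 call was lost at a log2 difference of -0.29 under centring on probes detected on every array. Zfp593 and Zfp830 were detected on all GV arrays and on no mutant array.

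The 5 uncalled genes of the list were Zfp106, Zfp207, Zfp318, Zfp346 and Zfp622. Zfp622, related to a yeast factor of large ribosomal subunit maturation, differed by -2.37 ± 1.08 (SE, limma, adjusted p = 0.0963), with the second mutant oocyte at 9.57 between GV values of 8.38, 10.07 and 10.75. Zfp207, also called BuGZ, binds microtubules and the checkpoint protein Bub3. It read 7.52, 7.76 and 9.34 in the mutant oocytes and 8.43, 8.39 and 8.79 in the GV oocytes, a difference of -0.33 ± 0.54 (SE, limma, adjusted p = 0.617) with overlapping groups. Zfp346, which binds double-stranded RNA, and Zfp318, which acts in immunoglobulin D expression in B cells, differed by -0.81 ± 0.94 and -0.68 ± 0.43 (SE, limma, adjusted p = 0.478 and 0.21). Zfp106, an RNA-binding protein of motor neurons, had a pair of probes that differed in call. The brighter probe read 13.28, 13.94 and 14.24 in the mutant oocytes and 13.02, 13.23 and 12.94 in the GV oocytes and was not called (0.76 ± 0.37, SE, limma, adjusted p = 0.114), and the other was higher by 2.32 ± 0.34 (SE, limma, adjusted p = 0.00141). Both Zfp106 probes had every mutant array above every GV array.

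Of 14 transcription factors with studied roles, 9 were on the array and 4 were tested, with 2 higher and 1 lower, beside 17.4% and 44.8% of all genes. The higher ones were Zfp148 and Zfp423, whose calls were lost without scaling and with arrays centred on their median. Zfp219, a cofactor of Sox9 in cartilage, was detected on no mutant array. With the deposited scaling it was at least 5.55-fold lower (limma, adjusted p = 0.0052). The Zfp219 call was lost at a log2 difference of -0.80 under centring on probes detected on every array. Zfp516, a factor of brown fat, differed by -1.31 ± 0.72 (SE, limma, adjusted p = 0.155), with the first mutant oocyte at 10.37 among GV values of 9.41, 10.56 and 10.56. Zfp42, known as Rex1 in pluripotent cells, and Zfp711 were detected on no array.

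Apart from Zfp341, given below, the members called lower that remain were Zfp687, Zfp420, Zfp330, Zfp639, Zfp169, Zfp14, Zfp532, Zfp319, Zfp512, Zfp58, Zfp12, Zfp947, Zfp46, Zfp655 and Zfp958, 15 in all, with differences from -3.18 for Zfp687 to -1.74 for Zfp958. Of these, 7 were detected on no mutant array. With the deposited scaling their bounds ran from at least 3.85-fold for Zfp46, whose sign turned under another scaling, to at least 7.61-fold for Zfp420. Centring on probes detected on every array ended the calls of 10 of them, Zfp12, Zfp14, Zfp169, Zfp420, Zfp46, Zfp512, Zfp532, Zfp58, Zfp947 and Zfp958, and cyclic loess those of Zfp330, Zfp512, Zfp639 and Zfp947. In several the difference moved with a single mutant oocyte. Zfp639 read 7.28, 10.34 and 6.87 in the mutant oocytes and 11.05, 11.06 and 11.29 in the GV oocytes (-2.97 ± 0.90, SE, limma, adjusted p = 0.0258), and differed by -4.06 without the second mutant oocyte. Its call was lost without any 1 of the other 5 arrays. Zfp512 read 9.81, 6.71 and 7.35 in the mutant oocytes and 10.79, 10.19 and 10.20 in the GV oocytes (-2.44 ± 0.81, SE, limma, adjusted p = 0.035), and differed by -3.36 without the first mutant oocyte, with the call lost without any 1 of the others. Zfp330 differed by -2.99 ± 0.73 (SE, limma, adjusted p = 0.0112), by -3.77 without the third mutant oocyte and by -2.29 without the first. Zfp319 differed by -2.65 ± 0.71 (SE, limma, adjusted p = 0.0154) and by -1.83 without the first mutant oocyte. Its call was lost without the first GV array. Where the filter was applied anew to the arrays left, it was lost without any 1 GV array. Zfp958 lost its call without the second mutant array or without the first or the third GV array, and ranged between -2.17 and -1.50 over all arrays left out.

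A further 27 members were not called, with differences from -2.53 to 1.89, and the groups overlapped in 22 of them. Those with the highest signal were detected on all 6 arrays. Zfp825 read 16.42, 16.16 and 15.83 in the mutant oocytes and 16.53, 16.63 and 16.45 in the GV oocytes, a difference of -0.40 ± 0.32 (SE, limma, adjusted p = 0.311). Zfp750, a regulator of epidermal differentiation, read 15.93, 15.94 and 16.14 in the mutant oocytes against 16.54, 16.73 and 17.14 in the GV oocytes, a difference of -0.80 ± 0.32 (SE, limma, adjusted p = 0.0656). In Zfp750 the groups did not overlap although it missed the threshold. Zfp513 and Zfp276 differed by 0.08 ± 0.33 and 0.26 ± 0.42 (SE, limma, adjusted p = 0.842 and 0.612) with overlapping groups, and their sign turned with the scaling. Zfp358 was 11.09, 12.03 and 11.67 in the mutant oocytes and 10.32, 10.86 and 10.59 in the GV oocytes (1.01 ± 0.38, SE, limma, adjusted p = 0.0538), and was called higher without the first mutant array at 1.26. Zfp341, by contrast, was called lower at the smallest difference of the 35, with 14.61, 14.42 and 14.54 in the mutant oocytes and 15.58, 15.41 and 15.58 in the GV oocytes (-1.001 ± 0.29, SE, limma, adjusted p = 0.0223). Human ZNF341 drives transcription of STAT3. The Zfp341 call was lost without the second mutant array or any 1 GV array, and the difference ranged between -1.06 and -0.95 over all arrays left out.

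Leaving out the first mutant array brought in 9 members that were not called higher with all arrays. In that fit 15 of 73 members and 23.5% of all genes were called higher, with calls already made on all arrays included. The share of new calls over all genes was not computed, so the count of 9 is a description. The 9 were Zfp74, Zfp131, Zfp553, Zfp956, Zfp39, Zfp526, Zfp623, Zfp358 and Zfp106, and are named because of these values. With 2 mutant arrays Zfp74 was higher by 3.54 ± 0.59 and Zfp956 by 2.33 ± 0.38 (SE, limma), given as a description. Zfp39, Zfp74 and Zfp956 were detected on 2 mutant arrays and on no GV array, and so did not pass the filter with all arrays in. Here they passed it only through the mutant arrays, where they were high.

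Of 42 zinc finger genes named Zbtb, Zscan or Zkscan on the array, 21 were tested, with 1 higher, 14 lower and a median of -2.15, beside 17.4% and 44.8% of all genes. All 21 were detected on all 3 GV arrays, and 7 of them on all 3 mutant arrays too. Most thus passed the filter through the GV arrays alone, and these counts too are a description. Zscan20 was 10.49, 7.94 and 6.81 in the mutant oocytes and 13.61, 13.72 and 13.58 in the GV oocytes, a fall of 5.22 ± 0.90 (SE, limma, adjusted p = 0.00257). Zkscan5 and Zkscan14 differed by -5.03 ± 1.10 and -4.15 ± 0.77 (SE, limma, adjusted p = 0.0071 and 0.00347), and Zbtb48, a telomere-binding protein, was at least 9.34-fold lower (limma, adjusted p = 0.000727). Zbtb7c was higher by 1.24 ± 0.30 (SE, limma, adjusted p = 0.0105), and stood at -2.05 with arrays centred on their median.

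Of 23 genes listed for the machinery through which KRAB domains act, 14 were on the array and 8 were tested, with 2 higher, 1 lower and 5 not called, beside 17.4% higher and 44.8% lower over all genes. Trim28, the corepressor that KRAB domains bind, read 8.84, 9.91 and 10.86 in the mutant oocytes and 12.59, 12.64 and 12.33 in the GV oocytes. Trim28 fell by 2.65 ± 0.54 (SE, limma, adjusted p = 0.0053), without overlap of the groups. Chd4, the remodelling enzyme of the NuRD complex, read 14.51, 14.69 and 14.14 in the mutant oocytes and 8.99, 9.78 and 10.15 in the GV oocytes, and was higher by 4.81 ± 0.41 (SE, limma, adjusted p = 0.000224). Dnmt1, the maintenance DNA methyltransferase, was higher by 1.93 ± 0.37 (SE, limma, adjusted p = 0.00422), and by 0.08 with no call when arrays were centred on their median. Chd4 was higher and Trim28 lower under each scaling tried.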

How the data were processed

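Expression was measured on Applied Biosystems mouse arrays read by chemiluminescence, with 1 oocyte per array. The authors deposited for each probe a signal intensity as the scanner wrote it, without scaling between arrays, a score for signal over noise and a flag, which was looked at and not used to filter. The log2 values used here, which the authors had brought to equal quantiles across the 6 arrays, were deposited in the same tables. Its software is not given in the sources. Symbols came from the platform annotation, in which 18354 probes have none and 247 have several, and all 208 member symbols were found in RefSeq.

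The log2 values of 8018 probes were fitted in limma 3.58.1 (lmFit and eBayes, R 4.3.3) with no covariate, with Benjamini-Hochberg adjustment over these probes. The fit was checked on simulated data. The probe with the highest mean stood for a gene, and each unnamed probe counted separately. Fold bounds for undetected genes use normalized log2 means, and so hold for the deposited scaling only. The number of arrays limits the precision.

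The members and lists were chosen with earlier results of these data known. Named were the called members with the largest differences, uncalled members with the highest signal, members of role lists, members whose probes differed and neighbours of Zfp61; others are named as chosen after their values were seen. Protein domains were not analysed here. Other scalings, filters, thresholds, variance models, a replicate block and each array left out were tried. Promoter sequences are from RefSeq (GRCm38.p6). Plots were drawn with matplotlib 3.10.9.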

Additional observations from a re-analysis of the deposited data

How the results depend on the processing

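With 3 oocytes per group, undetected signals on most mutant arrays and a scaling that decides the zero point, directions near 0 are not settled. The count of members called higher was 6 with the deposited values, 3 with no scaling, 1 with arrays centred on their median, 16 with cyclic loess, and 5 to 15 with 1 array left out. The count called lower was 35 with the deposited values, 58 with arrays centred on their median, 22 with centring on probes that every array detected, and 2 among members detected on all 6 arrays, where fewer genes were tested. The cause of the other changes was not tested. The lists of turned signs given here do not cover every member tested. Signs that turned without scaling included those of Zfp276 (-1.99), Zfp513 (-1.56), Zfp106 (-1.47), Zbtb7c (-0.94) and Zfp358 (-0.78). With arrays centred on their median, Zfp276 (-3.09), Zfp513 (-2.67), Zfp106 (-2.57), Zbtb7c (-2.05), Zfp358 (-1.88), Zfp692 (-0.87), Zfp423 (-0.74) and Zfp148 (-0.15) turned. With cyclic loess Zfp346 (0.55), Zfp207 (0.53), Zfp318 (0.42) and Zfp516 (0.33) turned. With centring on probes that every array detected, Zfp207 (1.49), Zfp318 (1.10), Zfp809 (1.06), Zfp346 (0.36), Zfp958 (0.27), Zfp46 (0.11), Zfp513 (-0.0073) and Zfp276 (-0.43) turned. The dimmer probe of Zfp692 was at -0.54. With 1 array left out, Zfp207 ranged between -0.89 and 0.0156, Zfp346 between -1.69 and 0.25, Zfp513 between -0.044 and 0.23, and Zfp276 between -0.0007 and 0.50. Same-numbered arrays of the groups did not deviate together (r = -0.0487, 0.0275 and -0.0339), so the numbers were not taken as pairs. With a replicate block 7 members were higher and 36 lower, and Zfp341 and Zfp809 were no longer called. The remaining alternatives (the series table, detection limits of 2 and 5, no filter, a floor, array weights, trended variance, no fold limit, an adjusted p under 0.01 and the dimmest probe) kept both counts within 1.5 times.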
